A study of Mus musculus with 12 samples.

Results

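The miR-23, miR-27 and miR-24 miRNAs are made from 2 gene clusters, Mir23a, Mir27a and Mir24-2 on chromosome 8 and Mir23b, Mir27b and Mir24-1 on chromosome 13. These 6 names were looked up in the deposited small RNA table, and 5 of them had a row among its 32101 features (1577 annotated as miRNAs), so Mir24-1 was not measured under its own name. The libraries hold RNAs of 20 to 24 nt from mouse embryonic stem cells (ESCs), pluripotent cells of the early embryo, labelled as E14. There were 6 libraries for WT, 2 for Dnmt1 KO and 4 for Dicer/Dnmt1 KO. Every title ends in A or B. Outside Dnmt1 KO a number precedes this letter, and libraries that share a number are called a culture here as a working name. The labels leave unsaid what the number and the letter stand for, whether separate cell samples or the same RNA sequenced again, so p-values may measure technical spread. WT culture 2 is titled E14 2 and carries a genotype only in its characteristics. Dnmt1 is the enzyme that restores DNA methylation on newly replicated strands, and Dicer (Dicer1) is the ribonuclease that cuts miRNA precursors. In the study's methods the Dnmt1 loxP/loxP line is of strain C57BL/6, its alleles are deleted by Cre after tamoxifen, and the Dicer lines were derived from it by CRISPR/Cas9 through single-cell colonies. Whether WT here means uninduced cells of that line is not in the labels, so a difference of line cannot be told apart from the genotype in comparisons with WT. The same holds for Dicer/Dnmt1 KO against Dnmt1 KO, since the Dicer lines passed through colonies of their own. The days of induction are not given in the labels of these libraries.

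A miRNA cluster is transcribed as 1 long precursor, which Drosha cuts into hairpins and Dicer into duplexes of about the length of a mature miRNA. One strand of each duplex is loaded into an Argonaute protein and finds target mRNAs mainly through its seed, bases 2 to 8. The miR-23, miR-27 and miR-24 families are known from differentiated tissues such as endothelium, muscle and blood, whereas the Mir290 and Mir302 clusters are known from ESCs.

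The mature sequences show which members the reads can tell apart. They are given from RefSeq (build GRCm38.p6), 5′ to 3′, with the seed in capitals.
miR-23a-3p: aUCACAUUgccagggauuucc
miR-27a-3p: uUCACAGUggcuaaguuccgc
miR-27b-3p: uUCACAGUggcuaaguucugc
miR-24-3p: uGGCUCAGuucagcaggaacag
miR-24-2-5p: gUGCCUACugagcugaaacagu
miR-24-1-5p: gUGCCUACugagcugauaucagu
miR-27a-3p and miR-27b-3p share a seed and differ at 1 of 21 bases, C19U, counted from the 5′ end with the miR-27a base first. A read of 20 nt or more that starts at the mature 5′ end covers this base. miR-24-3p is the same molecule from both clusters and matched NCBIM37, the build of the table, at 2 places, on chromosomes 8 and 13. The other mature sequences found in the RefSeq table matched at 1 place each. miR-24-2-5p and miR-24-1-5p share a seed and differ at 5 of the 22 bases compared. Reads at Mir24-2 can therefore come from either cluster, and how the authors placed such reads is not given in the sources used here. miR-23b-3p is named only.

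The chromosome 8 members lie within a short stretch of the plus strand in NCBIM37, Mir23a at chr8:86732417-86732491, Mir27a at chr8:86732571-86732657 and Mir24-2 at chr8:86732714-86732820, and they overlap no other feature of the table. On chromosome 13, Mir23b (chr13:63401780-63401876, plus strand) and Mir27b (chr13:63402008-63402104, plus strand) lie in an intron of the protein-coding gene 2010111I01Rik (chr13:63066253-63427404, plus strand). The Mir24-1 hairpin matched chr13:63402516-63402583, inside the same gene and inside AC130827.1, an annotated miRNA on the opposite strand that held 0 or 1 read in each library. The host gene held between 0 and 6 reads a library outside Mir23b and Mir27b, so its own row in the table was nearly that of Mir27b.

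Depth was low and uneven. WT libraries held 16142 to 245184 reads, those of Dnmt1 KO 67678 to 107607, and those of Dicer/Dnmt1 KO 8710 to 150701. Levels are in RPM, reads scaled to a fixed library total, and a single read was worth 114.81 RPM in the shallowest library (Dicer/Dnmt1 KO 1B) but 4.08 RPM in the deepest (WT 1A). Annotated miRNAs took 29.52% to 65.8% of the reads in the table in WT and 51.36% to 53.44% in Dnmt1 KO. In Dicer/Dnmt1 KO they took 6.55% to 12.69%, below both other ranges. Reads of 20 to 24 nt do not measure the mRNAs of the deleted genes. Dnmt1 held 2 to 6 and Dicer1 0 or 1 read a library in Dicer/Dnmt1 KO, against 0 to 18 and 0 to 3 in WT, and Dnmt1 held 8 and 9 in Dnmt1 KO, which checks nothing. Fewer cells of a type and less RNA per cell cannot be told apart in these bulk libraries.

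Mir27b held most of the reads of both clusters. In WT it had 474 reads (1933.2 RPM) in 1A, 181 (1248.1) in 1B, 50 (3097.5) in 2A, 552 (3937.1) in 2B, 85 (1177.9) in 3A and 206 (1431.3) in 3B. Both libraries of culture E14 2 lay above the other 4. In Dnmt1 KO it had 363 reads (5363.6 RPM) in A and 845 (7852.6) in B, both above every WT library. In Dicer/Dnmt1 KO it had 28 reads (1143.3 RPM) in 1A, 5 (574.1) in 1B, 161 (2538.3) in 2A and 72 (477.8) in 2B. Of these 4, 3 lay below every WT library and 2A lay inside the WT range. WT averaged 2137.5 RPM ± 1132.5 (SD, n = 6), Dnmt1 KO 6608.1 ± 1760.0 (SD, n = 2) and Dicer/Dnmt1 KO 1183.4 ± 949.8 (SD, n = 4). Without 2A the Dicer/Dnmt1 KO mean was 731.7 RPM, and without E14 2 the WT mean was 1447.6 RPM. By mean RPM, Mir27b ranked 20 among the annotated miRNAs of WT. Its rank was 16 for Dnmt1 KO and 17 for Dicer/Dnmt1 KO.

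Mir27a, which carries the same seed, was lower and moved in the same order. It had 89, 31, 4, 45, 13 and 30 reads in WT 1A, 1B, 2A, 2B, 3A and 3B, or 255.7 RPM ± 71.5 (SD, n = 6). Dnmt1 KO A and B had 30 and 55 reads, or 477.2 RPM ± 48.0 (SD, n = 2), and both lay above every WT library. The Dicer/Dnmt1 KO libraries had 3 reads in 1A, 1B and 2A each and 5 in 2B, or 136.9 RPM ± 143.8 (SD, n = 4). The 3 reads of the shallow library 1B alone were worth 344.4 RPM, inside the WT range, and without that library the mean was 67.7 RPM, with each of the other 3 libraries below every WT library.

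Mir23a, whose product has another seed, was at the lowest level of the tested members. WT libraries had 6, 6, 2, 9, 5 and 4 reads, from 24.5 to 123.9 RPM. Dnmt1 KO A and B had 12 and 19 reads, or 177.3 and 176.6 RPM. Dicer/Dnmt1 KO had 0 reads in 1A and in 1B and 1 read in 2A and in 2B. The 3 groups did not overlap in RPM, but a count of 0 allows up to 122.5 RPM in 1A and 344.4 RPM in 1B (3 reads). The counts of 0 in these 2 libraries thus do not exclude a level in the WT range. Over pooled reads, the Mir23a level of Dicer/Dnmt1 KO was 0.193 of that of WT (exact 95% interval 0.0224 to 0.755, 2 against 32 reads, counting error only).

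**Figure D1:**
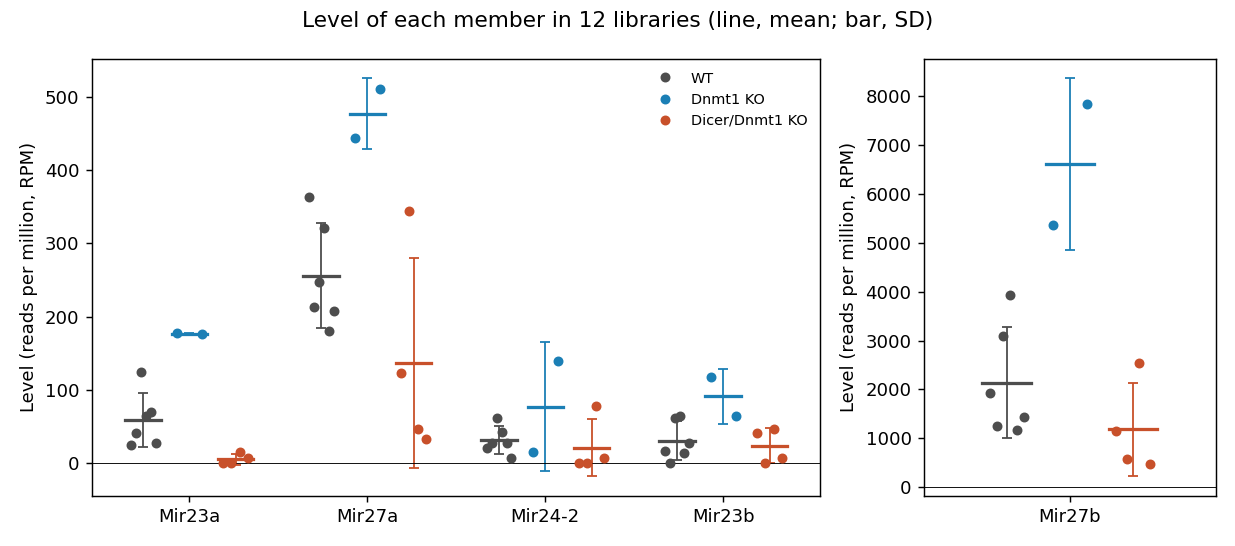
Level of each measured member in RPM (y axis), 1 point per library, by genotype (colour), with the mean as a line and the SD as a bar. Mir27b has its own axis, on which both Dnmt1 KO libraries lie above all WT libraries, and 3 of 4 Dicer/Dnmt1 KO libraries lie below them.

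Mir24-2 and Mir23b were too low for a test. Mir24-2 had 5, 4, 1, 6, 2 and 1 reads in WT, then 1 and 15 for Dnmt1 KO, and 0, 0, 5 and 1 for Dicer/Dnmt1 KO. Mir23b had 4, 0, 1, 9, 1 and 4 reads in WT, then 8 and 7 for Dnmt1 KO, and 1, 0, 3 and 1 for Dicer/Dnmt1 KO. The groups overlapped for Mir24-2 in every pair, and for Mir23b only Dnmt1 KO lay above the other groups. Scaled to the length of each feature, the WT means per 100 nt were 2203.6 RPM for Mir27b, 293.9 for Mir27a, 78.0 for Mir23a, 31.6 for Mir23b and 29.2 for Mir24-2. In this order Mir23b and Mir24-2 differed by less than their SDs (27.4 and 17.8), and the Mir23a range (32.6 to 165.2) overlapped both, while those of Mir27a and Mir27b did not overlap each other or the rest.

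The comparison of Dicer/Dnmt1 KO with WT asked how the members change when Dicer and Dnmt1 are lost together. It used limma on log2(RPM + 10) after scaling by trimmed means of log ratios (TMM), with p-values adjusted by Benjamini-Hochberg over 683 features. A feature was tested if at least 2 libraries reached 111.3 RPM, worth 10 reads at the median depth, and it had at least 15 reads in total, which 3 of 5 members passed. Mir23a passed only through Dnmt1 KO A and B, where it is high, and WT 2A, and without Dnmt1 KO just 1 library reached the filter. Mir23a fell by 2.42 on the log2 scale (SE 0.61, limma adjusted p = 0.00854) and Mir27a fell by 2.10 (SE 0.53, limma adjusted p = 0.00882). Mir27b had a log2 change of -1.86 (SE 0.63), and its limma adjusted p of 0.047 was just under the threshold. Beside these calls, 19% of all tested features and 60.9% of the 133 tested miRNAs were called lower. The size of the Mir23a change followed the pseudocount, with a log2 change of -4.33 at 1 RPM and -1.14 at 50 RPM. The 3 changes were smaller than the median over those miRNAs, -2.75, while the median over all tested features was -0.09.

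The Mir27b call was not firm. With TMM computed over all features with a read, which was the first fit made, its adjusted p was 0.0605. The features used for TMM were settled after that value had been seen. It was above 0.05 in 12 of 15 other settings (0.0354 to 0.216 over all 15) and in 8 of 12 fits with 1 library left out, namely WT 1A, 2A or 2B, Dnmt1 KO A or B, or Dicer/Dnmt1 KO 1A, 1B or 2B (up to 0.145). Without culture E14 2 the log2 change was -0.94 (adjusted p = 0.179). Mir27a lost its call without Dicer/Dnmt1 KO 2A (adjusted p = 0.0727) and in 4 of 14 other settings. Mir23a kept its call without any 1 library and in 11 of 13 other settings. Those 13 leave out A and B summed and the replicate block of number and letter, where Mir23a failed the filter. Mir23a lost the call without the filter (adjusted p = 0.117) and with voom weights (log2 change -1.79, adjusted p = 0.0918). Where near-identical miRNAs were summed, the values counted are those of Mir23a with Mir23b (limma adjusted p = 0.0449) and Mir27a with Mir27b (limma adjusted p = 0.0369). The direction of all 3 was the same in every one of these fits.

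**Figure D2:**
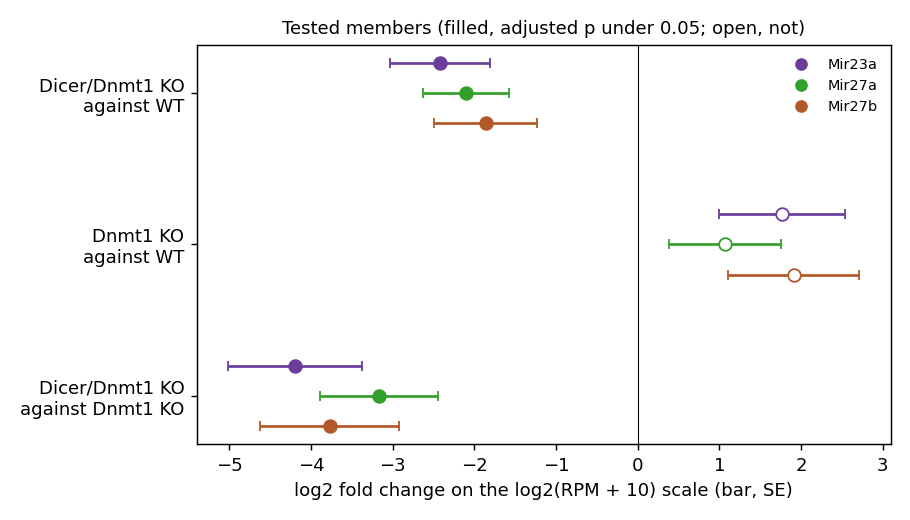
Fitted log2 fold changes of the 3 tested members (x axis, with SE as bars) in the 3 comparisons (y axis), filled where the limma adjusted p was under 0.05. All 3 members are filled and to the left of 0 in both comparisons of Dicer/Dnmt1 KO, with Mir27b against WT at 0.047. They are open and to the right of 0 in Dnmt1 KO against WT. Mir23a passed the filter only through Dnmt1 KO, where it is high, so its points in the comparisons with that group are no support for a change.

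Set against the other miRNAs of the same library, the direction of Mir27b was the opposite. Mir27b took 0.49% ± 0.189 (SD, n = 6) of miRNA reads in WT, 1.036% ± 0.306 (SD, n = 2) in Dnmt1 KO and 1.239% ± 0.833 (SD, n = 4) in Dicer/Dnmt1 KO. The highest value, 2.477%, was that of Dicer/Dnmt1 KO 2A, and without it the mean was 0.827%. The Dicer/Dnmt1 KO values of 0.67% to 2.477% overlapped the WT values of 0.324% to 0.778%. The ratio of Dicer/Dnmt1 KO to WT was 0.55 in RPM and 2.53 in the share of miRNA reads for Mir27b. For Mir27a it was 0.54 and 2.74, but the 3 reads of Dicer/Dnmt1 KO 1B decided both, and without that library it was 0.26 and 1.0 (0.065% of miRNA reads in each group). For Mir23a it was below 1 on both scales. The total of miRNA reads, the denominator of the share, was itself the quantity that differed between the genotypes.

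**Figure D3:**
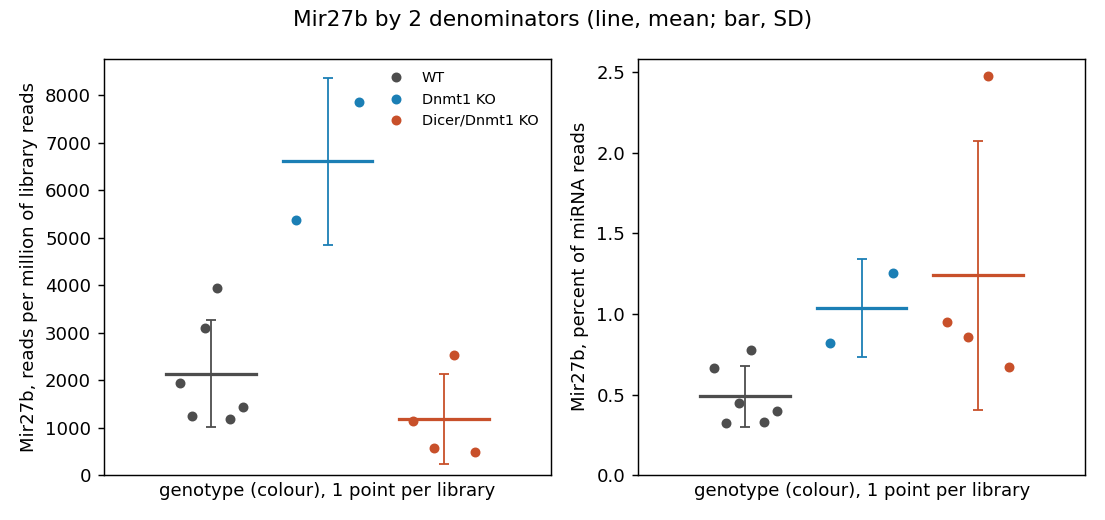
Mir27b in each library as RPM of library reads (left) and as a percentage of miRNA reads (right), with mean and SD by genotype. The mean of Dicer/Dnmt1 KO is below that of WT on the left (1183.4 against 2137.5 RPM) and above it on the right (1.239% against 0.49%).

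The comparison of Dnmt1 KO with WT asked how the members change when Dnmt1 is lost and Dicer is present. The log2 changes were 1.77 for Mir23a (SE 0.77, limma adjusted p = 0.248), 1.07 for Mir27a (SE 0.68, limma adjusted p = 0.437) and 1.91 for Mir27b (SE 0.80, limma adjusted p = 0.212). None of the 3 passed the test in limma, 2 had an unadjusted p under 0.05, and voom called 1 (Mir23a, adjusted p = 0.0156). The unadjusted limma p was under 0.05 for 125 of 683 tested features and 56 of 133 tested miRNAs, and voom called 73 features higher. Since both Dnmt1 KO libraries, where Mir23a is high, carried it past the filter, its calls here are no support for a rise. Without the filter the limma adjusted p of Mir23a was 0.815. In the fit of all 12 libraries, 6.59% of all tested features were called higher, and 21.1% of tested miRNAs. The median change was 0.13 over all tested features and 1.40 over miRNAs. Without culture E14 2, Mir27b had a log2 change of 2.49 (adjusted p = 0.0109) and Mir23a of 2.27 (adjusted p = 0.0142), and without WT 2A alone these were 2.26 (adjusted p = 0.0492) and 2.21 (adjusted p = 0.0244). Without E14 2, calls over all features split into 96 higher and 85 lower of 660, against 45 and 2 of 683 with it. The titles of the Dnmt1 KO libraries differ only in the letter.

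The comparison of Dicer/Dnmt1 KO with Dnmt1 KO asked what the loss of Dicer changes where Dnmt1 is absent from both groups. Mir23a had a log2 change of -4.19 (SE 0.82, limma adjusted p = 0.00128), Mir27a fell by 3.17 on the log2 scale (SE 0.72, limma adjusted p = 0.00385) and Mir27b fell by 3.77 (SE 0.85, limma adjusted p = 0.00368). Since both Dnmt1 KO libraries carried Mir23a past the filter, its value here is no support for a fall from that group. Without the filter its adjusted p was 0.00475, and its log2 change was -6.29 with a pseudocount of 1 RPM and -2.41 with 50 RPM. Beside the calls of Mir27a and Mir27b, which passed the filter without Dnmt1 KO too, 21.7% of all tested features and 74.4% of tested miRNAs were called lower, and the median change of those miRNAs was -4.17. The Mir27a call ended without scaling factors (adjusted p = 0.0502) and without the filter (adjusted p = 0.279), and that of Mir27b with A and B summed (adjusted p = 0.0541). The comparisons share libraries, so their values are given side by side and are not independent. Without scaling factors, the split of calls over all features moved from 35 higher and 130 lower to 84 and 116 against WT, and from 8 and 148 to 24 and 127 against Dnmt1 KO.

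Within a library the share of the chromosome 13 cluster in the reads of both clusters needs no scaling. It was 82.7%, 81.5%, 87.9%, 90.3%, 81.1% and 85.7% in WT 1A, 1B, 2A, 2B, 3A and 3B, and 89.6% and 90.5% in Dnmt1 KO A and B. For Dicer/Dnmt1 KO it was 90.6% in 1A, 62.5% in 1B, 94.8% in 2A and 91.2% in 2B. The value of 62.5% rests on 5 of 8 reads (95% Wilson interval 30.6% to 86.3%). The chromosome 13 cluster thus gave the larger part in 12 of 12 libraries, and the ranges of the groups overlapped. Dicer/Dnmt1 KO overlapped WT only through 1B. Its libraries 1A, 2A and 2B lay above the WT maximum of 90.3%, though the Wilson interval of 1A began at 75.8%. The share counts no Mir24-1 row. Reads of miR-24-3p count on the chromosome 8 side where they were placed at Mir24-2, and are left out if placed at the Mir24-1 hairpin. Mir27b alone was 84.2% to 92.6% of the Mir27a and Mir27b reads in WT, 92.4% and 93.9% in Dnmt1 KO, and from 62.5% in 1B to 98.2% in 2A for Dicer/Dnmt1 KO, which spans the others. Over the 12 libraries the tested levels correlated at 0.91 between Mir23a and Mir27b, 0.80 between Mir23a and Mir27a and 0.75 between Mir27a and Mir27b (Pearson's r, log2 scale, a description across libraries that share depth and genotype). The highest value was thus that of a pair from different chromosomes.

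**Figure D4:**
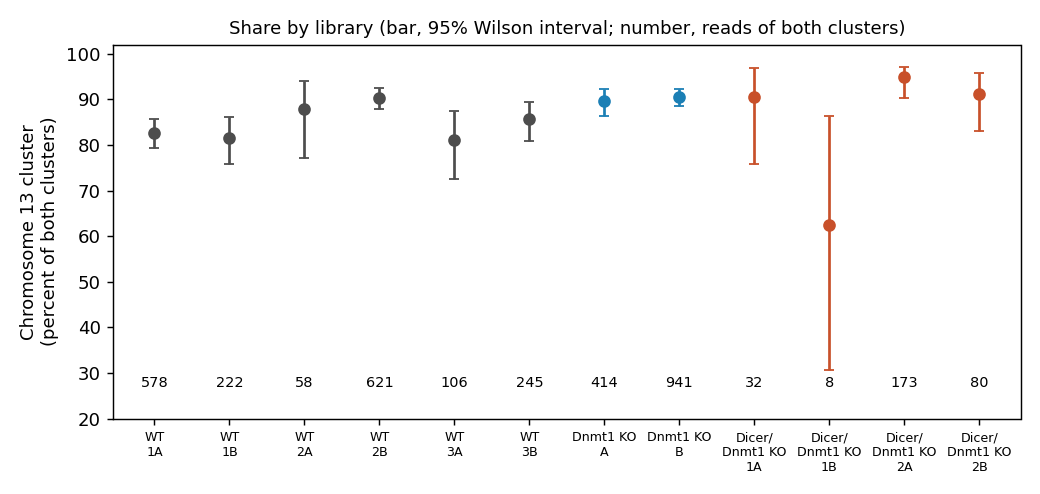
Share of the chromosome 13 cluster in the reads of both clusters (y axis, percent, starting at 20) in each library (x axis, coloured by genotype), with 95% Wilson intervals and the number of reads below. The intervals of WT run from 72.6% to 94.0%, and only Dicer/Dnmt1 KO 1B, with 8 reads, is far from the others.

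The miRNAs whose levels over the 12 libraries were most like the mean of the tested members, among 130 other tested miRNAs, were Mir151 (Pearson's r 0.99), Mir192 (0.98) and Mir425 (0.97). Mir151 averaged 3664.1 RPM in WT, 10883 in Dnmt1 KO and 433 in Dicer/Dnmt1 KO. All 3 had their highest mean in Dnmt1 KO and their lowest in Dicer/Dnmt1 KO, as the tested members did. They were picked for this likeness over the same libraries, so the shared order is no separate result. The median log2 change over tested miRNAs was 1.40 in Dnmt1 KO against WT and -2.75 in Dicer/Dnmt1 KO against WT.

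Lists of marker miRNAs were read for the cell types a culture could hold. In Dicer/Dnmt1 KO against WT, 19% of all tested features and 60.9% of tested miRNAs were called lower. In Dnmt1 KO against WT, 6.59% and 21.1% were called higher. There the unadjusted limma p was under 0.05 for 125 of 683 tested features and 56 of 133 tested miRNAs. Since Dicer cuts miRNA precursors, a fall of a list in Dicer/Dnmt1 KO does not tell cell types apart. The ESC list (Mir290 to Mir295, Mir302a to Mir302d and Mir367) summed to 28682.9 to 93274.9 RPM in WT, 55925.7 to 99648.3 with Dnmt1 KO and 1221.0 to 3797.3 with Dicer/Dnmt1 KO. Of its 10 tested miRNAs, 10 were called lower in Dicer/Dnmt1 KO against WT (median log2 change -5.39), and none was called in Dnmt1 KO against WT by limma (2 at an unadjusted p under 0.05, and 2 called by voom). By mean RPM, the tested ESC miRNAs moved both ways in Dnmt1 KO against WT. Mir290, Mir291a, Mir292 and Mir293 were higher, with Mir291a at 7986.0 against 3157.5 RPM. Mir291b, Mir294, Mir295, Mir302a, Mir302b and Mir302d were lower, with Mir302d at 278.7 against 1062.6 RPM. Mir302c and Mir367 were at 0 reads in both knockout groups, against 21 and 45 reads in WT. The list of fibroblast or other mesenchymal miRNAs, the cells of feeder layers, summed to 9857.9 to 15470.2 RPM in WT, 41298.5 to 49151.1 with Dnmt1 KO and 12514.8 to 40754.9 with Dicer/Dnmt1 KO. Of its 5 tested miRNAs, Mir143, Mir21 and Mir22 were called higher in Dnmt1 KO against WT, and Mir143 in Dicer/Dnmt1 KO against WT, where none was called lower. Of its 10 measured miRNAs, 2 were at 0 in each group, with Mir199a-1 at 0 throughout and Mir199a-2 at 1 read in Dicer/Dnmt1 KO alone. Mir214 averaged 1.2 RPM in WT, 30.6 in Dnmt1 KO and 45.7 in Dicer/Dnmt1 KO. Mir145 averaged 4.8, 38.0 and 20.7 RPM in the same order. The summed mesenchymal level thus moved with the members between WT and Dnmt1 KO, where the median tested miRNA also rose (log2 change 1.40). In Dicer/Dnmt1 KO the mean of this list was above that of WT (24981.7 against 12085.7 RPM). The mean of all members was below it there (1370.9 against 2513.6 RPM). The part of this list's cells in the levels of the members was not tested. The endothelial list summed to 118.1 to 420.8 RPM in WT, 827.4 to 892.1 with Dnmt1 KO and 126.1 to 662.2 with Dicer/Dnmt1 KO. By limma, 0 of its 3 tested miRNAs were called in Dnmt1 KO against WT (3 at an unadjusted p under 0.05, and 2 called by voom). In Dicer/Dnmt1 KO against WT these miRNAs moved in both directions. Mir126, at 0 reads in Dicer/Dnmt1 KO, was called lower (log2 change -4.09). Mir221 was called higher (log2 change 1.61). Mir222 was also higher (log2 change 1.57) but was not called (limma adjusted p = 0.096). The blood list summed to 717.8 to 806.8 RPM in WT, 546.7 to 743.4 with Dnmt1 KO and 0 to 122.5 with Dicer/Dnmt1 KO. Its member Mir223 was at 0 in WT and Dnmt1 KO. Of the 2 tested miRNAs of the blood list, Mir142 and Mir150, both were called lower in Dicer/Dnmt1 KO against WT. Of the list of miRNA biogenesis genes, which includes Drosha, Dgcr8 and Dicer1, 10 of 11 had a row and 0 passed the filter, since reads of this length do not measure their mRNAs.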

How the data were processed

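Small RNA libraries of 12 ESC samples were analysed from 1 deposited table. Reads were trimmed by the authors with Trim Galore 0.3.5, limited to 20 to 24 nt, mapped to NCBIM37 with Bowtie2 2.2.6 (tools and versions per the labels, lengths per the methods) and counted over annotated features with SeqMonk. The deposited values were log2 RPM with 0 reads written as 0.9 read. Setting each column's lowest value to 0.9 read returned whole reads (within 0.02 read) for 100.0% of values, which gave each library's reads (8710 to 245184). A further 89 value columns belong to no sample here and were not used. Counts in the table came to 85.4% to 125.3% of library reads, since a read inside a hosted miRNA counts for both features. All 32101 features matched the GENCODE annotation on NCBIM37 by interval, strand and symbol. Whether counting used strand is not given in the sources used here.

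Groups came from the genotype label. Because the deposited unit is log2, the test was limma 3.58.1 under R 4.3.3, with a trend of variance on mean and no covariates, on log2(RPM + 10) after TMM scaling (30% of log ratios and 5% of abundances trimmed) in 1 fit of all 12 libraries, with 3 contrasts, two-sided, adjusted at 0.05. Folds on this scale understate changes of features with few reads. TMM factors were first computed over all features with a read and then, with those results known, over the features that passed the filter, the usual order. The first version is kept as an alternative. The test was tested on simulated data. Intervals are 95% Wilson or exact binomial, the floor for a count of 0 is 3 reads, and both cover counting error only. The genes named are the members, their host features, the 3 tested miRNAs most like the members' mean, and lists of marker and biogenesis genes. The members and lists were chosen with earlier results of these data known. Reads of A and B of a culture differed beyond sampling noise and were kept apart, which does not make them independent. Their consensus correlation within a culture was 0.302. The libraries of WT, Dnmt1 KO and Dicer/Dnmt1 KO form 3, 1 and 2 cultures, with Dnmt1 KO A and B counted as 1. The alternatives changed scaling, pseudocount, filter, weighting, the handling of A and B, replicate blocks, libraries used and the summing of near-identical miRNAs. Python 3.11.15 with pandas 2.3.3, scipy 1.17.1 and matplotlib 3.10.9 was used for tables and figures.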

Additional observations from a re-analysis of the deposited data

Results flagged for a closer look

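In groups of 4 or 6 libraries, a library far from the rest of its group was looked for in 36 sets of values by Dixon's ratio, and 10 values stood apart. Chance gives about 1 in 20 sets, and the sets overlap, since clusters contain their members. In WT 1A, Mir27a took 0.125% of miRNA reads, and the chromosome 8 cluster 0.141%, above the other WT libraries. In WT 3B, Mir24-2 took 0.002% of miRNA reads, below the others, on 1 read. Dicer/Dnmt1 KO 1B has the fewest reads, and there Mir27a took 0.515% of miRNA reads on 3 reads, the chromosome 8 cluster also 0.515%, and the chromosome 13 cluster 62.5% of the reads of both clusters. In Dicer/Dnmt1 KO 2A, Mir24-2 stood at 78.8 RPM and 0.077% of miRNA reads on 5 reads, Mir27b at 2.477% of miRNA reads and the chromosome 13 cluster at 2.523%, above the other 3 libraries. The Mir27b value of 2A rests on 161 reads.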

How the results depend on the processing

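Depth limits Mir23a, Mir24-2 and Mir23b most, since single reads decide their values in Dicer/Dnmt1 KO. A pseudocount of 1 or 50 RPM moved the log2 change of Mir23a from -2.42 to -4.33 or -1.14 against WT and from -4.19 to -6.29 or -2.41 against Dnmt1 KO. The TMM feature set and the fit over all features with a read were settled after results had been seen. That fit called 28 features in Dnmt1 KO against WT, where the reported fit called 47. In Dicer/Dnmt1 KO against WT it called 2 members lower, Mir27b no longer among them (adjusted p = 0.0605), beside 131 of 683 tested features. Dividing by miRNA reads turned the log2 ratio of mean levels of Dicer/Dnmt1 KO to WT from -0.85 to 1.34 for Mir27b, from -0.87 to 1.34 for all members and from -0.90 to 1.46 for Mir27a. The last rests on Dicer/Dnmt1 KO 1B, without which the ratio by miRNA reads was 0.01 for Mir27a and stayed positive for Mir27b (1.48). Scaling by library reads alone shifted the median of all features by 0.70 against WT and 0.91 against Dnmt1 KO, and snoRNA and snRNA factors by -0.12 and -0.50.

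Members called lower in Dicer/Dnmt1 KO against WT numbered 1 without scaling factors, 0 without the filter and 0 with A and B summed, where Mir23a failed the filter. Over all tested features, 116 of 683, 114 of 14232 and 107 of 536 were called lower in these settings, in this order. Without the filter the log2 changes of Mir23a and Mir27b stayed at -2.42 and -1.86. With A and B summed 1 member was called lower against Dnmt1 KO, beside 116 of 536 tested features. Features called in Dnmt1 KO against WT numbered 31 with a pseudocount of 1 RPM, 80 with voom, 12 with A and B summed, 30 with culture as a random effect and 181 without culture E14 2. Members called higher there numbered 1 with voom (Mir23a) and 2 without E14 2 (Mir23a and Mir27b), beside 73 of 683 and 96 of 660 tested features. Mir23a had passed the filter through Dnmt1 KO. With 1 library left out, 149 to 187 features were called in Dicer/Dnmt1 KO against WT, 15 to 97 in Dnmt1 KO against WT and 113 to 178 in Dicer/Dnmt1 KO against Dnmt1 KO, with 2 to 3, 0 to 2 and 3 to 3 members called. Without Mir24-2, the chromosome 13 share was 90.9% in Dnmt1 KO against 90.1%. Leaving Dnmt1 KO with 1 library assumes that it varies like the other groups. The cause of these changes was not tested.

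The replicate numbers and letters did not pair the libraries. Deviations of WT and Dicer/Dnmt1 KO libraries with the same number and letter correlated at -0.23, 0.11, -0.17 and -0.28, and those of the same letter at 0.05 to 0.10. A replicate block of number and letter, without Dnmt1 KO, called 0 members lower in Dicer/Dnmt1 KO against WT (Mir27b adjusted p = 0.0529, Mir27a 0.104), where Mir23a failed the filter. It called 96 of 655 tested features lower. With the replicate block of letter alone the adjusted p of Mir27b was 0.0506, and the other member calls kept their side of the threshold.

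Without the filter, the log2 changes of Mir24-2 and Mir23b were -1.31 and -0.83 in Dicer/Dnmt1 KO against WT, 0.78 and 1.72 in Dnmt1 KO against WT and -2.10 and -2.55 in Dicer/Dnmt1 KO against Dnmt1 KO, none past the threshold.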
